A study of Mus musculus with 8 samples.

Results

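Long intergenic non-coding RNAs (lincRNAs) are transcripts that lie between protein-coding genes, are often spliced and polyadenylated like mRNAs, and carry no long reading frame. Many are made at low levels and in few cell types, the brain being rich in them, and both strands of a stretch of genome can be transcribed, so a lincRNA is defined by its position and its strand. The mouse expression array used here covers such transcripts with probes that have no gene name and are named instead by a genomic interval on the mm9 build and by the strand searched, forward (F) or reverse (R). All 16181 non-control probes named in this way were taken, 29.1% of the 55681 non-control probes on the array. They cover 3540 intervals, of which 1251 have probes for the forward strand only, 1222 for the reverse strand only and 1067 for both, which gives 4607 combinations of interval and strand. Each combination has 1 to 10 probes (median 3) of 60 bases, all of different sequence, and the intervals have a median length of 7315 bases.

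Prefrontal cortex (PFC) RNA was measured in 4 α-Gal A(-/0) mice and 4 wildtype mice, 1 mouse and 1 one-colour array each. All were male, aged 20 to 24 weeks and labelled as strain C57BL/6J, although the methods give C57BL/6 without a substrain for the α-Gal A(-/0) mice. α-Gal A(-/0) males lack a working copy of the X-linked gene Gla, which encodes the lysosomal enzyme α-galactosidase A, and are a model of Fabry disease, in which the glycolipid Gb3 accumulates. By the methods the genotypes came from separate inbred colonies, so colony and genotype cannot be told apart. The probe for Gla read 17.13, 17.18, 17.17 and 17.13 log2 units in α-Gal A(-/0) mice, against 17.01, 17.17, 17.06 and 17.13 in wildtype mice. These values overlap, and since the sources used here do not give the place of the disruption relative to the probe, it does not check the genotype labels.

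The markers of cortical cell types were present: all 5 excitatory neuron, all 5 inhibitory neuron, all 5 astrocyte, all 5 oligodendrocyte, all 5 microglia and all 5 endothelial markers were well above background on all 8 arrays. The summed linear signal of the 5 microglia markers was 26318 to 27794 in α-Gal A(-/0) mice, against 33692 to 38520 in wildtype mice, with no overlap (1 of 5 markers called). That of the 5 astrocyte markers was 24815 to 28000 in α-Gal A(-/0) mice, against 28524 to 29406 in wildtype mice (0 of 5 called), and that of the 6 striatal markers was 33857 to 88309 in α-Gal A(-/0) mice, against 24456 to 60116 in wildtype mice (0 of 6 called). The 5 olfactory bulb markers summed to 4212 to 8275 in α-Gal A(-/0) mice, against 2283 to 5788 in wildtype mice (1 of 5 called, 3 of 5 above background on all 8 arrays), and the 3 red cell markers to 27529 to 31610 in α-Gal A(-/0) mice, against 19196 to 37807 in wildtype mice (0 of 3 called). Of markers of tissues outside the cortex, Ttr of the choroid plexus and Fgb of the liver were not well above background on any array. The other 3 of the 4 choroid plexus markers were well above background on all 8 arrays. That list summed to 365 to 1241 in α-Gal A(-/0) mice, against 322 to 873 in wildtype mice (0 called). The 4 liver markers summed to 5724 to 7248 in α-Gal A(-/0) mice, against 5275 to 5581 in wildtype mice (1 of 4 above background on all 8 arrays). The part of these lists in the interval differences was not tested, and in bulk tissue fewer cells of a type and less RNA per cell cannot be told apart.

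The probe sequences on which the results turn are given 5′ to 3′ as the scanner files hold them, in the sense of the RNA searched. The first set shows how little sequence separates probes that behaved alike or apart. On chromosome 17, the probes below lie in overlapping forward intervals. The first 2 adjoin each other, and the last 2 share the 24 bases in capitals.
A_30_P01026072 (chr17:36135828-36135887): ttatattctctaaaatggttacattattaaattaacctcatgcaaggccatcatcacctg
A_30_P01030142 (chr17:36135888-36135947): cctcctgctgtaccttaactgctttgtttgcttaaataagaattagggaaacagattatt
A_30_P01032982 (chr17:36136116-36136175): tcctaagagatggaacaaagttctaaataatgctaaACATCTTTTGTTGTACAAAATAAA
A_30_P01032824 (chr17:36136152-36136211): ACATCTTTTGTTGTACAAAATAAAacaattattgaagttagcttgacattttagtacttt

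On chromosome 10, a pair of interval probes overlaps the array's probe for Gm4924 on the same strand, and the 43 bases common to all 3 are in capitals.
A_30_P01026481 (chr10:81863549-81863608): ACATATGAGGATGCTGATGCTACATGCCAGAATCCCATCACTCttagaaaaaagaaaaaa
A_30_P01028991 (chr10:81863542-81863601): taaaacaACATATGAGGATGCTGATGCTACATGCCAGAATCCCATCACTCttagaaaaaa
A_55_P2062593, Gm4924 (chr10:81863532-81863591): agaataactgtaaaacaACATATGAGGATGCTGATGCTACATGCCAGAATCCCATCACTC

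On chromosome 4, forward and reverse probes of an interval cover the same bases, and the 55 bases that pair with the opposite probe are in capitals.
A_30_P01026093, forward (chr4:123581029-123581088): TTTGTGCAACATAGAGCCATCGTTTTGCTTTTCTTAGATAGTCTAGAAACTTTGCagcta
A_30_P01030990, reverse (chr4:123581024-123581083): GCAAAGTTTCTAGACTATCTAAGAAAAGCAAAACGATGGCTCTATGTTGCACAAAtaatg
A_30_P01032350, forward (chr4:123580789-123580848): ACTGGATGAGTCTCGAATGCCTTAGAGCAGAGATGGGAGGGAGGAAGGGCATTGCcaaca
A_30_P01024161, reverse (chr4:123580784-123580843): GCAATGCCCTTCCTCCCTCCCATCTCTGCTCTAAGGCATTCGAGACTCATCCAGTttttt

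The next probes lie end to end in an interval yet differed from each other between the genotypes, on chromosomes 16 and 6, or belong to other intervals with called falls, on chromosomes 11, 12 and 1.
A_30_P01021021 (chr16:40096958-40097017): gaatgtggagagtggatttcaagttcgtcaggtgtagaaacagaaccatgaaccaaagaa
A_30_P01018661 (chr16:40097018-40097077): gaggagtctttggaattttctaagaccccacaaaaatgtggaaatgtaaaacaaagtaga
A_30_P01017841 (chr6:90760058-90760117): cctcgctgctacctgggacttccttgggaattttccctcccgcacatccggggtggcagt
A_30_P01017668 (chr6:90760118-90760177): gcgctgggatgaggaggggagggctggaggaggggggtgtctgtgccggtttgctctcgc
A_30_P01025754 (chr11:95630801-95630860): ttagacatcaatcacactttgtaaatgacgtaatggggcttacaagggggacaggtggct
A_30_P01027774 (chr11:95630874-95630933): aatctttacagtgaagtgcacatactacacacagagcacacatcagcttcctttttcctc
A_30_P01027809 (chr12:117637750-117637809): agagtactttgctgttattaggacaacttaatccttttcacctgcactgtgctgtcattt
A_30_P01031715 (chr12:117637810-117637869): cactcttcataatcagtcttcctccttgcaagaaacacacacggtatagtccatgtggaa
A_30_P01018612 (chr1:173361681-173361740): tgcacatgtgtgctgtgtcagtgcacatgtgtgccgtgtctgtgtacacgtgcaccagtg

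Interval probes were seen less often than the other probes of the array. A spot counts as well above background when the image software finds its signal clearly brighter than the background. On all 8 arrays this held for 5069 of 16181 interval probes (31.3%), against 24127 of 39500 other probes (61.1%), while 6366 interval probes (39.3%) and 8876 other probes (22.5%) passed on no array. Per array, 46.6, 33.2, 48.8 and 48.7% of the interval probes were well above background in α-Gal A(-/0) mice, and 54.8, 49.2, 47.4 and 48.5% in wildtype mice. Array by array the share was 23.3 ± 2.61 percentage points below that of the other probes (SD, n = 8 arrays) and lower on 8 of 8 (two-sided exact permutation test within arrays, p = 0.0078, the smallest it allows, adjusted p = 0.0313 over 4 comparisons). The same probe sets were read on every array, so this p restates the gap and is not separate support from 8 mice. Between the genotypes, the number of interval probes well above background was 7174 ± 1207 in α-Gal A(-/0) mice, against 8087 ± 535 in wildtype mice (SD, n = 4 each), which was not a difference beyond the spread (two-sided exact permutation p = 0.2, adjusted p = 0.343).

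α-Gal A(-/0) replicate 2 stood apart, with 5380 interval probes well above background where the other 7 arrays had 7541 to 8870. The 1689 interval probes that missed the full set of arrays only through this replicate were 10.4% of all interval probes, against 2548 of the other probes (6.45%). Without it, 7772 ± 200 probes in α-Gal A(-/0) mice (n = 3) stood against 8087 ± 535 in wildtype mice (n = 4; two-sided exact permutation p = 0.4). No interval probe was saturated on any array.

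**Figure D1:**
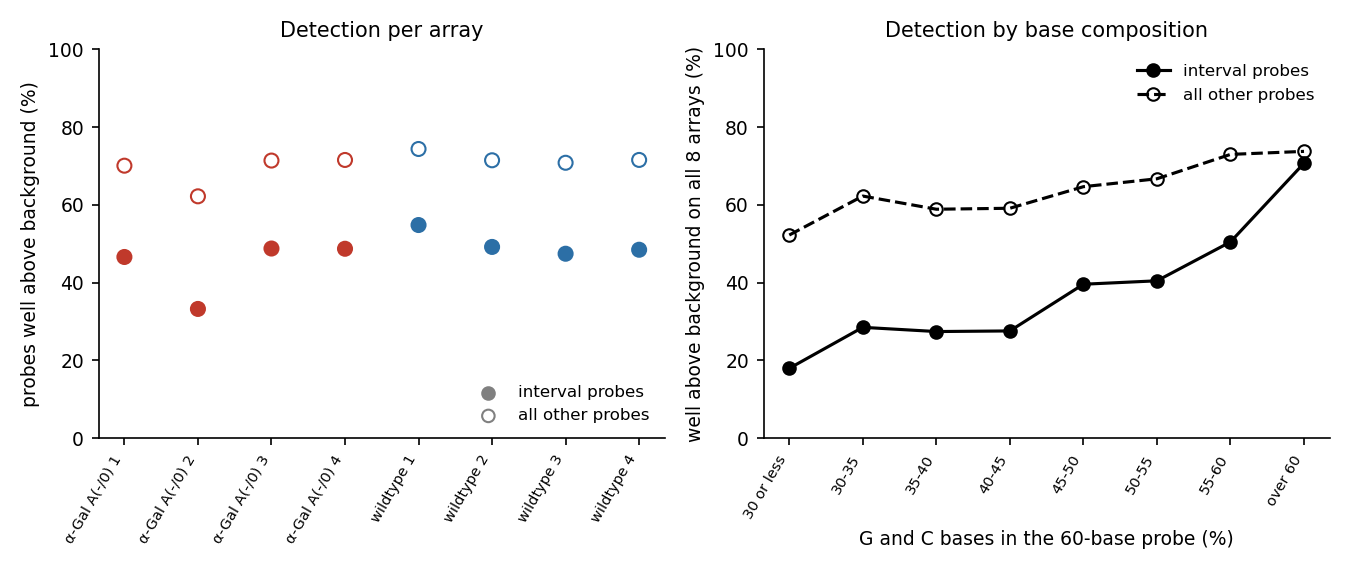
Left, the share of probes well above background (%, vertical axis) on each array, with α-Gal A(-/0) mice (red) left of wildtype mice (blue), filled points for interval probes and open points for all other probes. Right, the share well above background on all 8 arrays by the percentage of G and C bases in the probe; interval probes lie between 17.98 and 70.7% and other probes between 52.2 and 73.8%.

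Base composition went with detection. Of the 317 interval probes with at most 30% G and C bases, 17.98% passed on all 8 arrays, and of the 338 with over 60%, 70.7% did. The other probes ran from 52.2 to 73.8% over the same classes, so the gap between the kinds of probe was wide in A- and T-rich probes and close to none in the class richest in G and C. The median share of G and C bases was 45% in interval probes and 41.7% in the others. The polyadenylation hexamer AATAAA, which sits near the 3′ end of most mRNAs, occurred in 634 interval probes (3.92%) and in 4968 other probes (12.6%). On the probe's own strand it went with detection in the other probes (70.0% of those with it and 59.8% of those without) and hardly in interval probes (33.3 and 31.2%). Its reverse complement TTTATT was in 3.02% of interval probes and 4.03% of other probes, of which 26.6 and 65.3% were detected.

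Position within the interval mattered little, since 34.0% of probes in the first 20% of the interval and 31.4% in the last 20% were detected. Probes of intervals of 1000 bases or less were detected in 27.6% of cases, those of 1000 to 5000 bases in 40.4%, and those of longer classes in 30.6 to 31.5%.

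Not every interval lay clear of known genes. Of the 4607 interval and strand combinations, 360 (7.81%) held a probe for a RefSeq transcript on their own strand, and 227 (4.93%) on the opposite strand only. Probes of the first kind were detected on all 8 arrays in 47.3% of cases, those of the second kind in 23.8%, and those of intervals with no such gene probe in 30.4%. In the same way, 54.1% of the 246 interval probes whose bases overlap another probe of the array on the same strand were detected, against 26.8% of the 82 that overlap one on the opposite strand. The name intergenic therefore described most of these intervals, not all.

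Probes of the same interval often differed in detection. At least 1 probe was well above background on all 8 arrays in 2486 of 4607 combinations (54.0%), but of the 3917 with several probes only 530 (13.5%) had every probe detected, 1668 (42.6%) had none and 1719 (43.9%) had some and not others. Of the 1809 with exactly 3 probes, 882 had 0, 402 had 1, 195 had 2 and 330 had all 3 detected.

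Intervals searched on both strands were often detected on both. Of 1067 such intervals, 415 (38.9%) had a probe well above background on all 8 arrays on both strands, 214 (20.1%) on the forward strand only, 249 (23.3%) on the reverse strand only and 189 (17.7%) on neither. Where the forward strand was detected the reverse strand was too in 66.0% of intervals, and where the forward strand was not, in 56.8%. Detection on one strand thus told little about the other. The 596 intervals with the same number of probes on each strand gave 213 on both, 114 on forward only, 140 on reverse only and 129 on neither. Intervals searched on a single strand were detected in 1193 of 2473 cases (48.2%), against 58.95% for the forward and 62.2% for the reverse strand of the pairs. The number of probes was not matched in this comparison, and a strand with more probes has more chances to be detected.

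**Figure D2:**
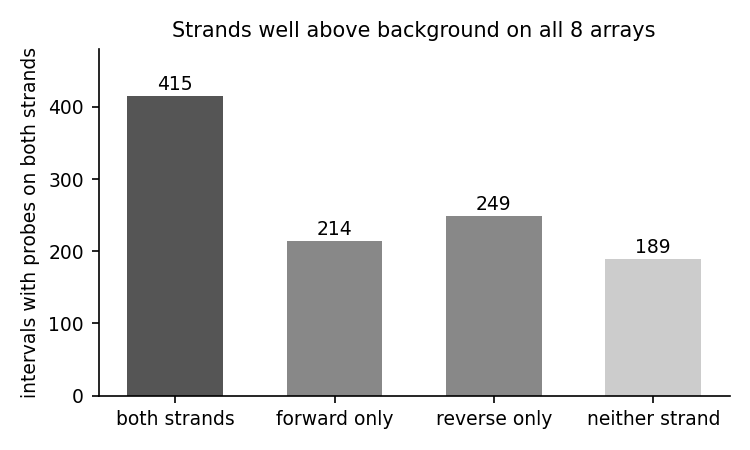
Number of intervals (vertical axis) among the 1067 searched on both strands, by which strand had a probe well above background on all 8 arrays. Bars show 415 for both strands, 214 for forward only, 249 for reverse only and 189 for neither.

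The genotypes were then compared probe by probe on quantile-normalised log2 signals. A log2 fold change is α-Gal A(-/0) minus wildtype throughout, and a probe was called when its adjusted p over all tested probes of the array was under 0.05 (limma, Benjamini-Hochberg). After 27 interval probes with an uneven spot were left out, 7121 of 16154 (44.1%) were well above background on all 4 arrays of a genotype and were tested, of 34341 tested probes in all. Of these, 5065 passed in both genotypes, 2042 only in wildtype mice and 14 only in α-Gal A(-/0) mice. A probe that passed in a single genotype is more likely to be high there, and 1689 interval probes failed only on α-Gal A(-/0) replicate 2, so the 2 directions were not filtered alike.

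At this threshold 57 interval probes were called (0.800% of those tested), against 0.882% of all tested probes. Of the 57, 24 were higher in α-Gal A(-/0) mice (0.306% of all tested probes were called higher) and 33 were lower (0.577% of all). All 24 higher probes passed this signal filter in both genotypes, and so did 14 of the 33 lower ones; the other 19 passed only through wildtype mice. Of these 19, 5 were well above background in none of the α-Gal A(-/0) mice and 14 in 1 to 3 of them, so the size of such a fall is less certain than that of a fall measured in every mouse. Restricting the test to probes well above background on all 8 arrays gave 29 higher and 16 lower calls, so the split between the directions changed with the filter. By the study's own criterion, an unadjusted p of 0.01 or less and a fold change of 1.2 or more, 279 interval probes (3.92%) passed, 122 higher and 157 lower, against 3.47% of all tested probes. This split turned round without α-Gal A(-/0) replicate 2 (187 higher, 138 lower) and with all 8 arrays required (118 higher, 84 lower). The values of the genotypes did not overlap in 538 interval probes (7.56%), against 7.95% of all tested probes. Interval probes thus differed between the genotypes about as often as the array as a whole. Their median log2 fold change was -0.01, against -0.02 over all tested probes, and their median standard error was 0.13, against 0.10.

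The 57 called probes had a median absolute log2 fold change of 1.10, or 2.15-fold, and 12 were at least 2-fold higher and 20 at least 2-fold lower. In all 57 the genotypes did not overlap. They came from 37 interval and strand combinations at 33 separate places, 12 of which held several called probes (36 of the 57). Under the 8 fits that each left out an array, 31 of the 57 stayed past the threshold in all 8. When slide row entered as a block, 28 did; row 1 carried α-Gal A(-/0) replicate 1 with wildtype replicates 1 to 3, and row 2 the other 4 arrays. None of the 57 changed direction in any alternative run. They were selected on these same arrays and their genotypes did not overlap, so a reversal was hardly possible and its absence is not separate support.

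By chromosome, 13 of the 57 called probes lay on chromosome 4 (2.95% of its tested interval probes), 8 on chromosome 17, 7 on chromosome 12, 6 on chromosome 10 and 5 on chromosome 6. Over all probes of the array, 1.92% on chromosome 4, 2.04% on chromosome 17, 2.13% on chromosome 12, 1.23% on chromosome 10 and 0.624% on chromosome 6 were called, against 0.882% overall. The X chromosome, which carries Gla, had 1 called interval probe of 269 tested. A called gene probe within 100 kb of the interval was found for 25 of the 57 called probes (43.9%) and for 223 of the 7121 tested ones (3.13%). The 25 probes are not separate places, since several share an interval or lie in overlapping ones. Some of the gene probes lie inside the interval, as for Gm4924 and Dynlt1f, and that for Gm4924 shares bases with interval probes.

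Several adjacent probes were lower in α-Gal A(-/0) mice on chromosome 17 within the major histocompatibility complex, where 3 forward intervals overlap between 36130717 and 36137617. Probe A_30_P01026072 read 4.24, 3.32, 4.12 and 4.13 log2 units in α-Gal A(-/0) mice, against 7.03, 7.12, 6.81 and 6.94 in wildtype mice. It was not well above background in any α-Gal A(-/0) mouse, and it was at least 5.68-fold lower (adjusted p = 0.000224, limma). For such probes the dim genotype is set at the dimmest signal that still counts as well above background on each array, or at the probe's own signal if that is higher. Its neighbour A_30_P01030142, which begins at the next base, read 6.46, 6.20, 6.59 and 6.60 in α-Gal A(-/0) mice, against 8.58, 8.56, 8.55 and 8.47 in wildtype mice. It was lower by -2.08 ± 0.09 (log2 ± standard error, adjusted p = 3.46e-05). The overlapping probes A_30_P01032982 and A_30_P01032824 had log2 fold changes of -2.92 ± 0.13 (adjusted p = 3.27e-05) and -2.65 (at least 4.23-fold lower, adjusted p = 0.000384). They carry the names of different intervals but share 24 bases, so they are in part the same measurement. A_30_P01032982 was tested through wildtype mice and was not well above background in every α-Gal A(-/0) mouse. The size of its fall is therefore less certain.

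All 5 tested probes of these 3 intervals were called lower, the last, A_30_P01031018, by -0.89 ± 0.14 (adjusted p = 0.0324). That probe too was tested through wildtype mice and was not well above background in every α-Gal A(-/0) mouse. The first 4 stayed past the threshold whichever array was left out, while A_30_P01031018 did under 1 of the 8 and not with the slide row as a block (adjusted p = 0.157). Of the genes around them, H2-T9, a non-classical MHC class I gene, was lower by -1.16 (adjusted p = 0.00457, limma). Its probe lies on the reverse strand, 39554 to 40477 bases from the 3 forward intervals. The nearest gene probe on the right, for H2-T24 of the same family, stood at -0.02 (adjusted p = 0.96, limma). An unannotated probe on the reverse strand, A_55_P2016962, was higher by 3.40 (adjusted p = 0.000623, limma). Genes of this family share long near-identical stretches, so which copy a probe reads is uncertain.

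On chromosome 12 the reverse interval chr12:117623500-117643575 had 4 of its 5 tested probes called lower. A_30_P01027809 read 7.06, 6.76, 6.68 and 6.99 in α-Gal A(-/0) mice, against 8.29, 8.13, 8.21 and 8.52 in wildtype mice. It and 3 further probes, A_30_P01031715, A_30_P01021644 and A_30_P01021843, had log2 fold changes of -1.41, -1.06, -1.26 and -1.21 (standard errors 0.09 to 0.12, adjusted p from 0.000348 to 0.000939). A_30_P01021843 was tested through wildtype mice and was not well above background in every α-Gal A(-/0) mouse, so its size is less certain. The fifth, A_30_P01023740, had -1.66 ± 0.37 and did not pass (adjusted p = 0.117). A gene probe within the interval on the reverse strand, for the transcript D430020J02Rik, was not tested. The nearest gene probe outside it, for the transcript 2310058N22Rik on the forward strand 4248 bases away, was lower by -1.57 (adjusted p = 1.47e-05, limma). The 4 forward probes over the same stretch were not well above background on any array. Ncapg2, a condensin subunit gene on the other side, had 0.30 (adjusted p = 0.345).

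On chromosome 1 a single probe of the reverse interval chr1:173353316-173367449, A_30_P01018612, read 5.17, 5.46, 5.22 and 5.54 in α-Gal A(-/0) mice, against 7.38, 7.51, 7.59 and 7.55 in wildtype mice. It was well above background in 3 of the 4 α-Gal A(-/0) mice and so was tested through wildtype mice. The genotypes did not overlap, and the log2 fold change was -2.16 ± 0.10 (adjusted p = 3.46e-05, limma). The flanking genes Tstd1 and F11r, which codes for a junctional adhesion molecule, had log2 fold changes of -0.07 (adjusted p = 0.921) and -0.31 (adjusted p = 0.401). The forward probe of this interval was not tested.

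On chromosome 5, A_30_P01032906 of chr5:110261075-110376700 and A_30_P01028509 of chr5:110424250-110443025, both forward, were lower by -0.83 ± 0.06 (adjusted p = 0.000285) and -0.92 ± 0.10 (adjusted p = 0.00392). The probes share a run of 56 of their 60 bases, so they cannot be read as separate measurements. The second interval also holds A_30_P01030864, lower by -1.24 ± 0.16 (adjusted p = 0.01, and 0.0539 with the slide row as a block), and 3 probes of Zfp932, a zinc finger gene, on the same strand. Those read -1.39 (adjusted p = 4.14e-05), -0.56 (adjusted p = 0.284) and -0.43 (adjusted p = 0.149). Here an interval and a protein-coding gene that share strand and place moved the same way. A called probe for Plcxd1, 89749 bases from the second interval, went the other way, higher by 0.67 (adjusted p = 0.0353, limma).

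The chromosome 4 interval chr4:123572090-123581365 differed on the forward strand and not on the reverse. A_30_P01026093 read 5.15, 4.82, 5.01 and 5.01 in α-Gal A(-/0) mice, against 7.04, 6.74, 6.58 and 6.77 in wildtype mice, and was lower by -1.79 ± 0.11 (adjusted p = 0.000168, limma). A_30_P01030990, whose 55 bases pair with it on the reverse strand, had 0.00 ± 0.09 (adjusted p = 1). The difference between these strands was -1.79 ± 0.12 (adjusted p = 0.000871). A_30_P01032350 and A_30_P01027427, further forward probes, had -0.92 ± 0.12 (adjusted p = 0.0109) and -0.97 ± 0.07 (adjusted p = 0.000547), the fourth, A_30_P01030962, had -1.86 and did not pass (adjusted p = 0.0739), and the 4 reverse probes lay between -0.03 and 0.37. The nearest gene on the right, Mycbp, had -0.02 (adjusted p = 0.971). The forward probes were well above background in all 4 wildtype mice and in 1 to 3 of the α-Gal A(-/0) mice, and the reverse probes on all 8 arrays. Gene probes within the interval on the reverse strand had -0.05 for Gm10572 (adjusted p = 0.92) and 0.15 for 4930535I16Rik (adjusted p = 0.679, limma).

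Other falls rested on single probes or on parts of an interval. In the reverse interval chr11:95627874-95640824, A_30_P01027774 read 4.04, 2.34, 3.41 and 2.19 in α-Gal A(-/0) mice, against 7.14, 6.34, 6.09 and 6.52 in wildtype mice. It was not well above background in any α-Gal A(-/0) mouse and at least 4.20-fold lower (adjusted p = 0.00748, limma). A_30_P01025754, which starts 73 bases away, read 2.21, 2.01, 4.84 and 4.18 in α-Gal A(-/0) mice, against 8.14, 7.11, 6.73 and 7.25 in wildtype mice (adjusted p = 0.0363). It was well above background in 2 of the 4 α-Gal A(-/0) mice, so no size is given for its fall. This second call stayed past the threshold in 1 of the 8 fits with an array left out and not with the slide row as a block (adjusted p = 0.0987). The other 7 tested reverse probes of this interval lay between -0.10 and 0.50, and the 9 tested forward probes between -0.42 and 0.05. A probe for Zfp652, a zinc finger gene, within the interval on the forward strand had 0.00 (adjusted p = 0.986).

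A_30_P01025550 of chr4:130039725-130069550 (forward) was at least 2.16-fold lower (adjusted p = 0.00596) and A_30_P01020436 of chr4:146507925-146532650 (reverse), well above background in 3 of the 4 α-Gal A(-/0) mice, had -1.73 ± 0.19 (adjusted p = 0.00444, limma). The other 4 tested reverse probes of that second interval lay between -0.56 and 0.09. The first interval holds a pair of probes for Snrnp40 on the same strand. Those had 0.01 (adjusted p = 0.972) and -0.12 (adjusted p = 0.632, limma), so the gene did not move with the interval probe.

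Among the rises, the forward intervals chr10:81816994-81863610 and chr10:81846505-81863606 were higher at every tested probe. A_30_P01032668 read 8.88, 8.70, 8.76 and 8.85 in α-Gal A(-/0) mice, against 7.27, 7.52, 7.21 and 7.04 in wildtype mice, and was higher by 1.54 ± 0.10 (adjusted p = 0.00026, limma). A_30_P01017823, A_30_P01026481 and A_30_P01028991 were higher by 1.34 to 1.36 (adjusted p from 0.000168 to 0.000291). The Gm4924 probe, which shares 43 bases with the last pair, was higher by 1.39 (adjusted p = 7.15e-05). All gave nearly the same fold, and 3 of the 5 read partly the same bases.

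The reverse interval chr12:55844075-55898175 overlaps Snx6, which codes for a sorting nexin of the endosomal retromer coat. A_30_P01027230 read 9.01, 8.87, 8.99 and 8.54 in α-Gal A(-/0) mice, against 6.99, 7.15, 7.31 and 7.09 in wildtype mice (log2 fold change 1.72 ± 0.12, adjusted p = 0.000312, limma). The other tested reverse probes were less far apart, A_30_P01029490 at 0.64 ± 0.06 (adjusted p = 0.00103), A_30_P01017443 at 0.43 ± 0.07 (adjusted p = 0.0315), A_30_P01024054 at 0.37 ± 0.12 (adjusted p = 0.284) and A_30_P01029787 at 0.32 (adjusted p = 0.0866). The call of A_30_P01017443 stayed in 1 of the 8 fits with an array left out and was lost with the slide row as a block (adjusted p = 0.0987). The Snx6 probe A_66_P117251, which shares 24 bases with A_30_P01029490, was higher by 0.51 (adjusted p = 0.00552), and a second Snx6 probe by a value that did not pass, 0.31 (adjusted p = 0.103). A called probe for Sptssa, 97507 bases from the interval, went the other way, lower by -0.47 (adjusted p = 0.046, limma). The difference between A_30_P01027230 and A_30_P01029490 was itself past the threshold, 1.08 ± 0.11 (adjusted p = 0.00697). Capitals mark the shared bases in the first 2 of the probes below.
A_30_P01029490 (chr12:55847350-55847409): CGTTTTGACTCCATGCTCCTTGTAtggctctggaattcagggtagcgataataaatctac
A_66_P117251, Snx6 (chr12:55847386-55847445): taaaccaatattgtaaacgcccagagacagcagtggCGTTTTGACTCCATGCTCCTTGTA
A_30_P01027230 (chr12:55857943-55858002): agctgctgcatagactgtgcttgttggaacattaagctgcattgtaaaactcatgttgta

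On chromosome 4 the reverse interval chr4:129376440-129391690 had 3 called probes, A_30_P01025732 at 1.18 ± 0.10 (adjusted p = 0.000837), A_30_P01021789 at 1.08 ± 0.10 (adjusted p = 0.00127) and A_30_P01018199 at 1.10 ± 0.18 (adjusted p = 0.0362, limma). The call of A_30_P01018199 stayed in 2 of the 8 fits with an array left out and was lost with the slide row as a block (adjusted p = 0.166). A_30_P01025732 read 9.46, 9.26, 9.20 and 9.42 in α-Gal A(-/0) mice, against 8.03, 8.30, 7.99 and 8.28 in wildtype mice. A probe for Khdrbs1, which codes for the RNA-binding protein Sam68, lies within the interval on the same strand and was higher by 0.54 (adjusted p = 0.00626), while a second Khdrbs1 probe beyond it had -0.04 (adjusted p = 0.875). A called probe for Iqcc, 83519 bases from the interval, went the other way, lower by -0.65 (adjusted p = 0.0118, limma). A_30_P01025783 and A_30_P01026565, which adjoin the called probes, had -0.80 ± 0.38 and 0.54 ± 0.19 and did not pass.

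On chromosome 17 the reverse intervals near the dynein light chain genes Dynlt1c and Dynlt1f were higher. A_30_P01021554 of chr17:6830756-6832322 read 11.53, 11.41, 11.36 and 11.56 in α-Gal A(-/0) mice, against 10.74, 9.51, 9.35 and 9.38 in wildtype mice, so that wildtype replicate 1 lay between the other wildtype mice and the α-Gal A(-/0) mice. Its log2 fold change was 1.72 ± 0.29 (adjusted p = 0.042), that of A_30_P01018546 was 1.54 ± 0.27 (adjusted p = 0.0488), and that of A_30_P01026467 in chr17:6602100-6615425 was 1.01 ± 0.17 (adjusted p = 0.0424, limma). Each stayed past the threshold in 1 of the 8 fits with an array left out and in none with the slide row as a block (adjusted p from 0.103 to 0.126). On the forward strand the probes for Dynlt1c and Dynlt1f were higher by 1.16 (adjusted p = 0.018) and 1.18 (adjusted p = 0.0206). A_30_P01026467 shares a run of 34 bases with a probe of an interval on chromosome 6, which read 1.24 (adjusted p = 0.067), so its source is uncertain.

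Smaller rises were seen together in the reverse interval chr4:124127144-124334840, which ends 2852 bases from the probe for Pou3f1, a POU-domain transcription factor. A_30_P01017577, A_30_P01019540, A_30_P01020763 and A_30_P01022502 had log2 fold changes of 0.38, 0.41, 0.47 and 0.48 (adjusted p from 0.0113 to 0.0405, limma), and the fifth, A_30_P01029218, had 0.38 (adjusted p = 0.084). A_30_P01019540 read 11.25, 11.27, 11.24 and 11.23 in α-Gal A(-/0) mice, against 10.82, 10.93, 10.78 and 10.81 in wildtype mice. Pou3f1 itself had 0.28 (adjusted p = 0.452). A probe for the transcript 1700057H15Rik, within the interval on the same strand, had -0.19 (adjusted p = 0.438, limma). None of these 4 calls held with the slide row as a block (adjusted p from 0.0642 to 0.121).

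**Figure D3:**
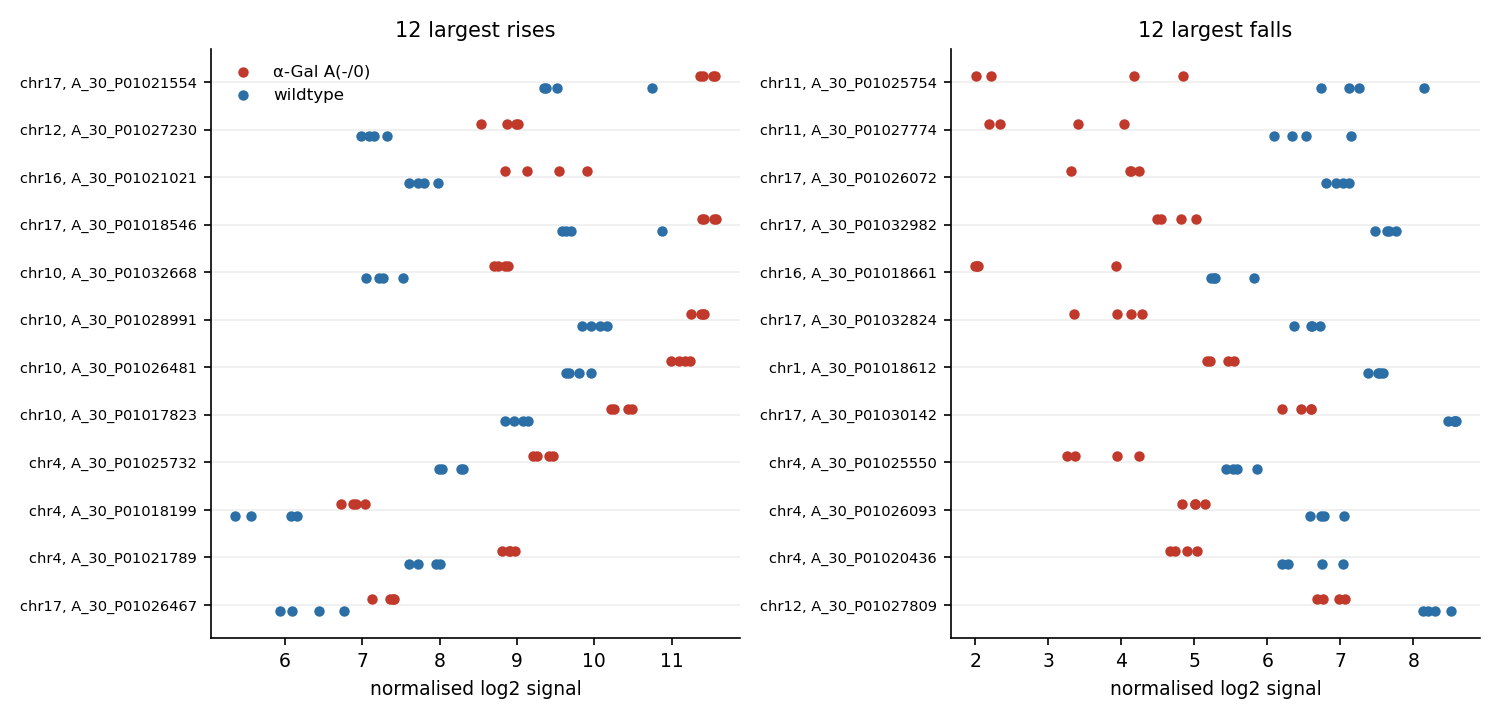
Normalised log2 signal (horizontal axis) of the 12 called interval probes with the largest rise (left) and the 12 with the largest fall (right), 1 point per mouse, α-Gal A(-/0) in red above wildtype in blue. The genotypes do not overlap in any row, and in A_30_P01021554 and A_30_P01018546 wildtype replicate 1 stands apart at 10.74 and 10.87.

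The adjoining probes of chr16:40096026-40097242 were called in opposite directions. A_30_P01021021 read 9.90, 9.54, 8.85 and 9.13 in α-Gal A(-/0) mice, against 7.79, 7.98, 7.60 and 7.73 in wildtype mice, and was higher by 1.58 ± 0.21 (adjusted p = 0.0135, limma). A_30_P01018661, which begins at the next base, read 2.02, 2.03, 3.93 and 2.0 in α-Gal A(-/0) mice, where it was not well above background, against 5.23, 5.82, 5.27 and 5.28 in wildtype mice. It was at least 1.93-fold lower (adjusted p = 0.0215, and 0.0904 with the slide row as a block). The third probe, A_30_P01024909, had -1.83 ± 0.44 and did not pass (adjusted p = 0.149). The rise of A_30_P01021021 stayed past the threshold in 5 of the 8 fits with an array left out and the fall of A_30_P01018661 in 1.

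Few pairs of probes differed in this way past the threshold. Over 8289 pairs of tested probes of the same interval and strand, the genotype difference itself differed in 28 (0.338%), against 0.492% over all 22146 pairs compared, and these 28 lay in 12 intervals, 9 of them in the reverse interval of chromosome 11. In 5 both probes were called, in 19 a single one and in 4 neither. A pair that did not pass is not thereby shown to agree, since 4 arrays per genotype can miss a difference. The median absolute difference in log2 fold change was 0.13 within an interval, against 0.09 over 8596 pairs of probes of the same named gene. The Pearson correlation of the 2 log2 fold changes, across pairs that share arrays and often probes, was 0.280 within intervals and 0.296 within named genes, and 0.415 over the 5042 interval pairs well above background on all 8 arrays. Pairs that lie end to end, 1116 in all, had a median difference of 0.10 and a correlation of 0.452, and the 725 pairs over 10000 bases apart 0.19 and 0.182. The correlation did not fall steadily with distance. It was 0.245 in overlapping pairs, 0.383 at 61 to 500 bases, 0.034 at 500 to 2000 and 0.152 at 2000 to 10000. Over pairs well above background on all 8 arrays it was 0.233 at 2000 to 10000 bases and 0.391 beyond.

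Of the 57 called probes, 48 had another tested probe in the interval on the same strand. In 29 such a probe was called in the same direction, in 2 in the opposite direction, and in 17 none was called. A clear case is chr6:90745692-90777977 on the forward strand, where A_30_P01017668 read 6.48, 6.71, 6.52 and 6.57 in α-Gal A(-/0) mice, against 7.72, 7.74, 7.86 and 7.81 in wildtype mice (log2 fold change -1.21 ± 0.07, adjusted p = 0.000107, limma). A_30_P01017841, ending at the base before it, had 0.16 ± 0.11 (adjusted p = 0.62), and the 5 tested reverse probes lay between -0.07 and 0.23. The call held in all 8 fits with an array left out. Only 3 intervals with several tested probes had all of them called.

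Opposite strands did not move together. Over 5261 pairs of a forward and a reverse probe of an interval, the correlation of log2 fold changes was 0.073 (0.062 over the 2850 pairs well above background on all 8 arrays). Their median absolute difference was 0.18. The strands differed in 37 pairs (0.703%) from 12 intervals, against 0.492% over all 22146 pairs compared. In 34 of the 37 a single probe was called, in 3 neither and in none both. The chromosome 11 interval gave 11 of them and chr4:123572090-123581365 gave 10. Such pairs reuse the same few probes, so the 37 are not separate differences. The counts of pairs that differed fell to 7, on opposite strands as within intervals, when both probes had to be well above background on all 8 arrays. Besides the chromosome 4, 6 and 11 intervals, chrX:148720661-148763177 had a reverse probe, A_30_P01028041, at -0.71 ± 0.10 (adjusted p = 0.0165) and a forward probe, A_30_P01032237, at 0.23 ± 0.11 (adjusted p = 0.462, limma), a difference of 0.95 ± 0.11, forward minus reverse (adjusted p = 0.0119). The call of A_30_P01028041, which was well above background in 3 of the 4 α-Gal A(-/0) mice, was lost in 4 of the 8 fits with an array left out and with the slide row as a block (adjusted p = 0.0915). A pair of probes for the transcript 2900056M20Rik, within the interval on the reverse strand, had -0.11 (adjusted p = 0.665) and 0.29 (adjusted p = 0.114, limma).

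**Figure D4:**
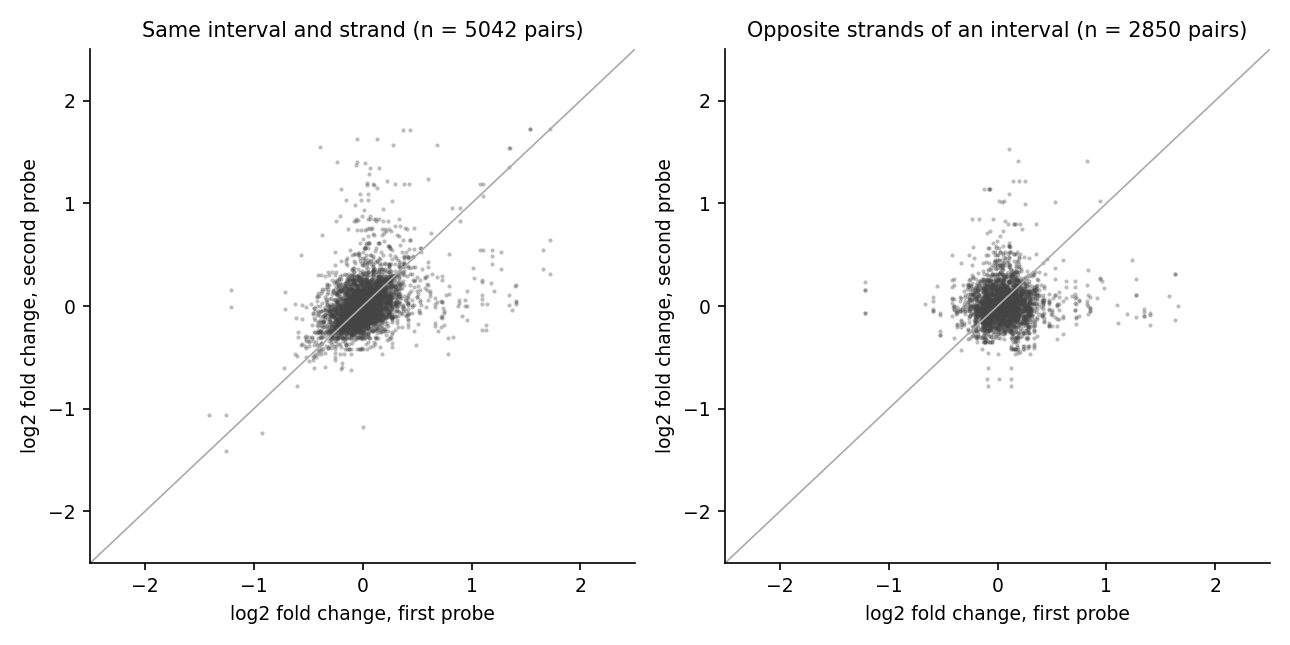
Log2 fold change of the first probe (horizontal axis) against that of the second (vertical axis) for pairs well above background on all 8 arrays; the grey line marks equal values. Left, 5042 pairs of the same interval and strand (r = 0.415); right, 2850 pairs on opposite strands (r = 0.062).

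**Figure D5:**
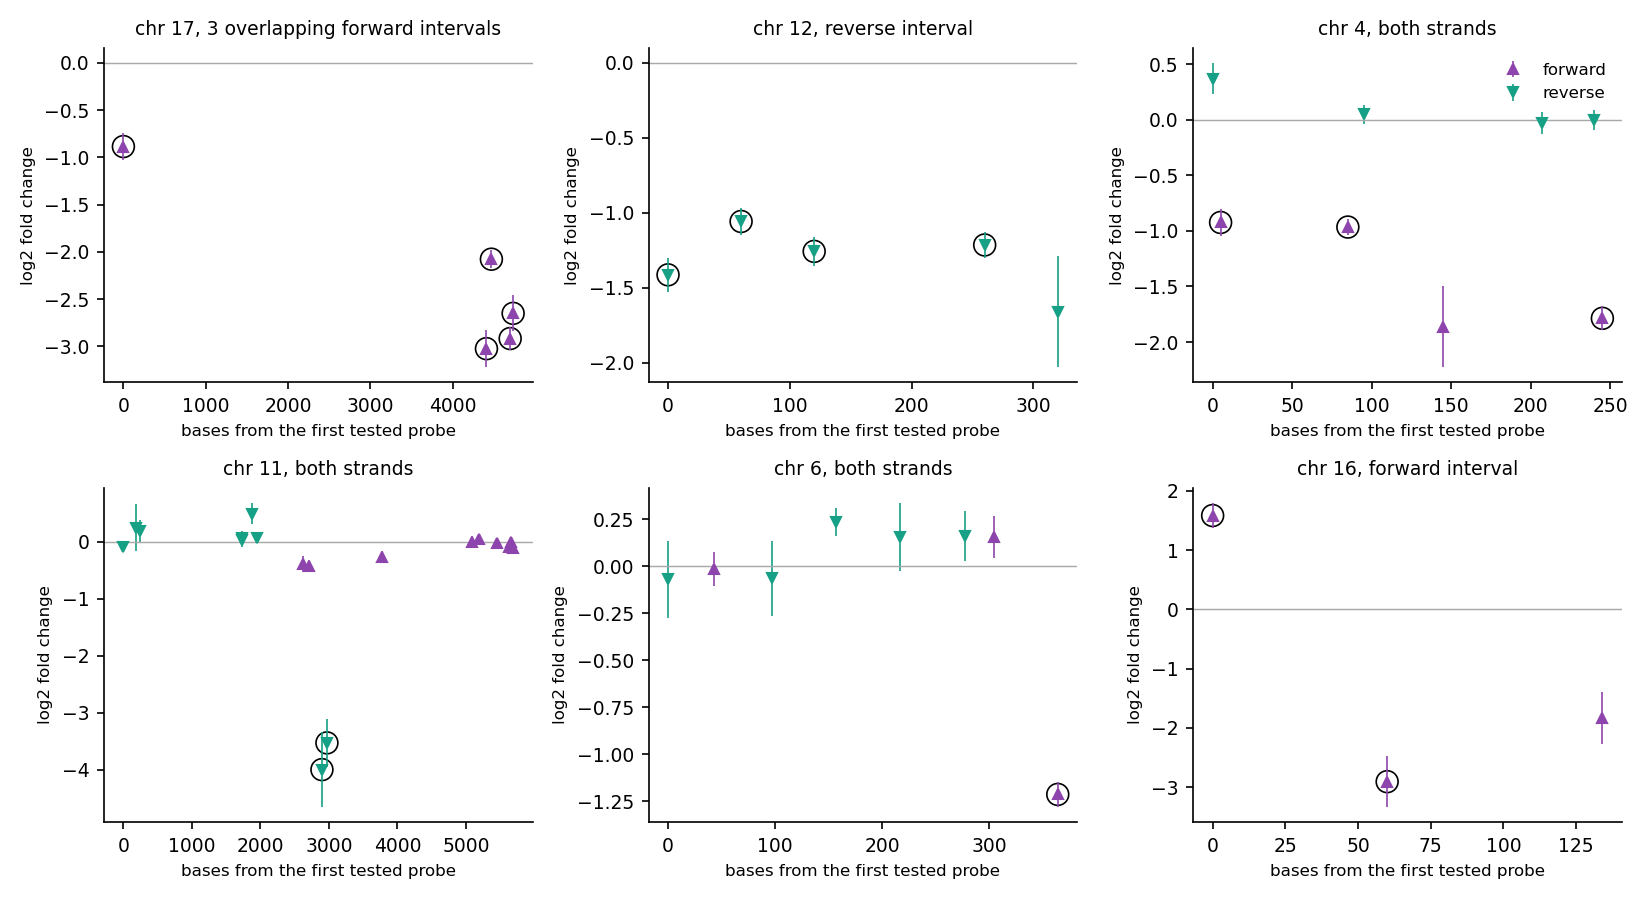
Log2 fold change, α-Gal A(-/0) minus wildtype (vertical axis, bars are standard errors), of every tested probe in 6 places, by distance in bases from the first tested probe; triangles point up for forward and down for reverse probes, and circles mark called probes. On chromosomes 17 and 12 the probes lie below 0 together, on chromosome 4 only the forward ones do, and on chromosomes 11, 6 and 16 called probes stand beside others that differ from them.

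Where an interval probe and another probe of the array overlap on the same strand, the readings were closer. Over 156 such pairs with both probes tested, the median absolute difference in log2 fold change was 0.06 and the correlation 0.706. Among the 6 in which either was called, 3 had both called, at Gm4924 and Snx6. The others were A_30_P01022407 of chr3:96074625-96086375, lower by -0.49 (adjusted p = 0.0166) beside -0.47 for the histone gene Hist2h2bb (adjusted p = 0.0692), and A_30_P01032677 of chr8:83210957-83219451, higher by 0.69 (adjusted p = 0.0336, limma) beside a pair of Frem3 probes at 1.04 and 0.48 (adjusted p = 0.361 and 0.0991). With the slide row as a block neither A_30_P01022407 (adjusted p = 0.102) nor A_30_P01032677 (adjusted p = 0.128) was called, and with an array left out they stayed in 4 and 1 of the 8 fits.

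The 3 uncalled interval probes closest to the threshold were A_30_P01033617 of chrX:92139043-92140820 (-1.26, adjusted p = 0.0535), A_30_P01020902 of chr10:93774693-93893616 (-0.60, adjusted p = 0.0559) and A_30_P01031397 of chr2:48807211-48843911 (-0.33, adjusted p = 0.0559, limma).

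Some intervals are precursors of microRNAs, short RNAs that pair with mRNAs through a seed of 7 bases, and 6 interval probes hold a whole mature microRNA. The mature sequences are from RefSeq, with the seed (bases 2 to 8) in capitals, and the probe is given with the mature sequence in capitals.
mmu-miR-410-3p: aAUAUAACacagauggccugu
A_30_P01029937: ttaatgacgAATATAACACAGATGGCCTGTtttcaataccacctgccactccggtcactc
mmu-let-7c-5p: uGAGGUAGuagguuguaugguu
A_30_P01031395: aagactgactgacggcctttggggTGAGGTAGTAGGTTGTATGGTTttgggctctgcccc
mmu-let-7c-2-3p: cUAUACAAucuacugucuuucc
A_30_P01033484: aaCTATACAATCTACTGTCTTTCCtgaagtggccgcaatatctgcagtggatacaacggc
mmu-miR-363-3p: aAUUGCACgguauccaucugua
A_30_P01026554: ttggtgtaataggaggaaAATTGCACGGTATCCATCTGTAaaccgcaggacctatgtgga

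The arrays read the longer RNA around these sequences, not the mature microRNA. The miR-410 probe lies in the forward interval chr12:110973190-110987668 of the imprinted Mirg transcript, which carries a large cluster of microRNAs expressed in brain. It read 7.67, 7.46, 7.49 and 7.66 in α-Gal A(-/0) mice, against 7.30, 7.28, 7.39 and 7.19 in wildtype mice. The genotypes did not overlap, but the log2 fold change of 0.28 ± 0.07 did not pass (adjusted p = 0.189, limma). The let-7 probes lie in chr15:85412264-85549139, where let-7, a family that restrains growth and stem cell genes, is made. A_30_P01033484 read 6.49, 7.41, 7.62 and 7.14 in α-Gal A(-/0) mice, against 6.45, 6.30, 6.29 and 6.63 in wildtype mice, and the genotypes overlapped (log2 fold change 0.75 ± 0.23, adjusted p = 0.253). A_30_P01031395 had 0.21 ± 0.17 (adjusted p = 0.666). The 7 probes of chrX:50087925-50101700, where miR-363 and miR-92a-2 lie, were not well above background on any array of either genotype. Their means were 2.0 to 2.27 in α-Gal A(-/0) mice, against 1.99 to 2.23 in wildtype mice.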

How the data were processed

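One-colour arrays (Agilent SurePrint G3 Mouse, Cy3), 4 of α-Gal A(-/0) and 4 of wildtype PFC, were analysed from the deposited scanner files. Labelling copies polyadenylated RNA, so RNA without a poly(A) tail is not measured. Per the file headers and the labels, the authors made the intensity values (processed signal) with Agilent Feature Extraction 10.7.3.1, which corrected gradients over the array, set surrogates for the dimmest spots and subtracted no local background. Mean and background intensity served an alternative. A table of processed values of the whole series was not used, since its columns did not follow their sample names. Spots of a probe were averaged on the log2 scale and quantile normalised. An uneven spot on any array removed 81 probes (27 interval probes), and those remaining that passed the background flag on all 4 arrays of a genotype were tested with limma 3.58.1 in R 4.3.3 (lmFit and eBayes, genotype only, Benjamini-Hochberg over all 34341 tested probes). Differences between probes were tested in the same way on the per-array difference, over all 22146 pairs together. Figures used matplotlib 3.10.9. Replicates are separate mice; the 4 arrays per genotype limit the precision. All arrays were on 1 slide.

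The members, gene lists and tests were chosen with earlier results of these data known. Named are the 12 called interval probes with the largest change in each direction, the 3 uncalled ones with the lowest adjusted p, up to 8 called pairs of each kind, the other probes of called intervals, the 5 brightest intervals, the nearest gene probes and called gene probes within 100 kb, and a list of named long non-coding RNAs; called probes beyond these were chosen after their values were seen. Intervals on chromosome 18 were counted and not named. The scripts were tested on simulated data. Probe positions are those of the files (mm9), and 118 interval probes have none. MicroRNA sequences are from RefSeq (GRCm38.p6), of which 1674 mature sequences were searched. Alternatives were the scaling, the background correction, the filter, the test, the replicate and slide-row blocks and each array left out. The slide rows alone were added after seeing the data.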

Additional observations from a re-analysis of the deposited data

Results flagged for a closer look

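Of 52 sets of 4 values searched (2 counts and 24 named probes in each genotype), 7 held an array whose gap to the nearest other, over the whole range, passed the critical value of Dixon's test, where chance gives about 1 in 20. α-Gal A(-/0) replicate 2 had 5380 interval probes well above background, where the other α-Gal A(-/0) mice had 7541 to 7893, and 471 intervals detected on both strands, where they had 651 to 688. The same mouse was lowest for A_30_P01026072 on chromosome 17, at 3.32 log2 units against 4.12 to 4.24 in the other α-Gal A(-/0) mice, all of them not well above background.

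Wildtype replicate 1 was highest in both called probes of the reverse interval beside Dynlt1c, at 10.74 in A_30_P01021554 (other wildtype mice 9.35 to 9.51) and at 10.87 in A_30_P01018546 (9.58 to 9.70). On chromosome 16, A_30_P01018661 was apart in α-Gal A(-/0) replicate 3, at 3.93 (others 2.0 to 2.03), and in wildtype replicate 2, at 5.82 (others 5.23 to 5.28).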

How the results depend on the processing

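Depth here is signal over background, and dim probes limit most of what can be said of intervals. In place of 57 called interval probes, the test with unequal variances gave 17, the replicate block 31 and the slide-row block 29; slide row 1 alone gave 32 and row 2 alone 21, of which 7 and 0 were also among the 57. Leaving out each array in turn gave 35 to 61, the lowest without wildtype replicate 3. The cut-offs of the study passed 279 interval probes on limma p-values. They passed 133 under unequal variances, the kind of test the study used, and 143 in row 2 alone. The 37 opposite-strand pairs became 14 with no filter, 7 with all 8 arrays required, 3 under unequal variances, 19 under the replicate block, 11 under the slide-row block and 15 to 42 with an array left out. The 28 pairs within an interval became 6, 7, 1, 8 and 7 under the same settings and 15 to 32 with an array left out. Their median difference of 0.130 became 0.0817 after normexp correction, 0.252 with no filter and 0.0968 with all 8 arrays required. With the more lenient flag of the image software, 8229 interval probes and 728 strand pairs were detected, and on at least 1 array 9815 and 850. The median log2 fold change of interval probes, -0.0122, lay above 0 with no filter (0.00996), with all 8 arrays required (0.00869), under the slide-row block (0.0121) and without α-Gal A(-/0) replicate 2 (0.0264), so it has no settled sign. Of 122 such values, 87 moved less than the spread or by under 1.5 times. The cause of these shifts was not tested. No called probe reversed in 1064 values, but the probes were selected on these same arrays, so this is not separate support.

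The replicate numbers did not pair the samples: same-numbered arrays correlated at -0.09, 0.14, 0.01 and 0.15 in their deviations from the genotype means, so the block value of 31 calls is not read as a weaker effect.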

Other observations

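Of 28 long non-coding RNAs with names of their own, 21 had a probe on the array outside the intervals and 19 were tested, of which 0 were called (limma; the median log2 fold change was -0.03). For 10 of them an interval on the same strand holds the named probe, and these intervals have 76 interval probes, of which 64 were tested and 0 called. Over all tested probes 0.882% were called, so lists of this size hold too few members for 0 calls to set them apart. Mirg, an imprinted microRNA precursor, had 13 of 16 interval probes well above background on all 8 arrays, with log2 fold changes of -0.14 to 0.28. Tug1, a nuclear RNA of neural cells, had 8 of 15 (-0.35 to 0.19), and Pvt1, a host of microRNAs beside Myc, 12 of 13 (-0.23 to 1.04, lowest adjusted p = 0.424). The highest of these, A_30_P01031483, read 6.72, 10.59, 6.77 and 6.79 in α-Gal A(-/0) mice, against 6.75, 6.55, 6.65 and 6.78 in wildtype mice, so that α-Gal A(-/0) replicate 2 alone stood apart. Jpx and Ftx, activators of the X-inactivation centre, had 4 of 4 and 4 of 7 (lowest adjusted p = 0.272 and 0.26). The interval that spans both Malat1 and Neat1 had 1 of 2, at 0.01.

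The interval with the highest mean signal was chr19:5801802-5802597 on the reverse strand, inside the interval that spans Malat1 and Neat1. Its brightest probe, A_30_P01031754, read 17.75, 17.72, 17.77 and 17.38 in α-Gal A(-/0) mice, against 17.75, 17.75, 17.77 and 17.77 in wildtype mice. The other 4 of the 5 brightest had log2 fold changes of 0.21 to 0.28, and none of the 5 was called (adjusted p from 0.332 to 0.686, limma).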
